A study of Mus musculus with 26 samples.

Results

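The DNA replication genes described here were 45 mouse genes that copy chromosomal DNA or feed and guard that copying. They were taken as a fixed list of symbols, chosen with earlier results of these data known. The symbols were matched to the 54146 Ensembl gene identifiers of the RNA-seq count tables. All 45 symbols were found, and all 45 passed the filter on low counts and entered the test. The list spans the MCM helicase, the factors that load and start it, the polymerases with their clamp, the enzymes that make and clean the nucleotide pool, nucleosome assembly factors, fork protection factors and the transcription factor E2f1.

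The study asked what the histone methyltransferase SETDB1, which places H3K9 methylation, does when it is overexpressed in leukaemia cells driven by the MLL-AF9 fusion oncogene (MA9). Lineage-negative mouse bone marrow cells were transduced with retrovirus carrying MLL-AF9 together with SETDB1 (MA9+SETDB1) or with the empty MSCVpuro vector (MA9+EV). Both arms thus carried the fusion, and both were selected with puromycin for about 3 to 6 weeks in IMDM medium with IL-3, SCF and antibiotics, and kept in culture for 8 to 12 weeks. Poly(A) RNA was sequenced from 3 libraries of each arm, described by the submitters as biological replicates. The labels do not say whether the replicates were separate transductions, so p-values here speak only to the scatter among these 6 libraries. Each arm is a transduced and drug-selected culture that had grown for weeks before harvest, and the labels give no cell number, cycle distribution or growth rate. The other 20 samples of the series, from ChIP-seq and ATAC-seq, were not analysed here.

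Replication starts at origins, where the origin recognition complex with Cdc6 and Cdt1 loads the MCM helicase before S phase. The Cdc7-Dbf4 kinase, the GINS complex, Cdc45 and Mcm10 then turn the loaded helicase into a moving fork, on which primase and the polymerases synthesise DNA behind the sliding clamp PCNA. Many of these genes are transcribed as cells pass from G1 into S phase under E2F factors, which the RB family holds in check, so their RNA is commonly high in dividing progenitors and low in cells that have left the cycle.

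The libraries held between 18070482 and 22561757 reads counted to genes. Setdb1 itself was at 105, 108 and 109 CPM (reads per 1000000 counted reads, with library sizes scaled by TMM factors) in MA9+EV and at 475, 605 and 607 CPM in MA9+SETDB1, a log2 fold change of 2.39 ± 0.13 (SE; adjusted p = 2.42e-05 by edgeR). Replicate 1 of each arm stood apart from replicates 2 and 3. The median chi-square per gene between libraries was 1.25 for replicates 2 and 3 of MA9+EV and 1.20 for those of MA9+SETDB1, where counting noise alone gives 0.455. It was 14.1 to 23.6 for every pair that included replicate 1. Several marker lists also divided the arms, and others were mixed. The summed level of 12 neutrophil genes was 14570.4 to 19209 CPM in MA9+EV and 59.6 to 138 CPM in MA9+SETDB1, and all 12 fell. The 13 erythroid genes summed to 0.950 to 1.81 CPM in MA9+EV, with Alas2, Slc4a1 and Rhag at 0, and to 2019 to 2154.5 CPM in MA9+SETDB1, and all 13 rose. For 10 mast cell and basophil genes the sums were 48.2 to 84.6 CPM and 9952 to 10236 CPM, and all 8 that were tested rose; Mcpt4 was at 0 in both arms. The 6 progenitor and leukocyte markers had counts in both arms and summed to 954 to 1103 CPM in MA9+EV and to 718 to 793 CPM in MA9+SETDB1, but 3 fell and 2 rose. On average Kit went from 114 to 1.07 CPM, Cd33 from 273 to 26.4 CPM and Ptprc from 370.2 to 105 CPM, while Itgam went from 98.4 to 405 CPM and Cd34 from 0.155 to 9.43 CPM. The B cell markers Ms4a1 and Pax5, the T and NK cell markers Cd3e, Cd4, Cd8a and Ncr1, and the endothelial markers Cdh5 and Kdr were at 0 in both arms. Other genes of those lists had counts. Pecam1 went from 319.8 to 129 CPM on average, Vcam1 from 37.0 to 0.748 CPM, Pdgfrb from 0.0612 to 54.1 CPM and Lck from 6.55 to 3.48 CPM, Cd79b was at 2.03 and 2.83 CPM, and Cd3g, at 0 in all MA9+EV libraries, averaged 1.85 CPM in the other arm. The part of this shift in cell identity in the results below was not tested, and in bulk RNA fewer cells of a type and less RNA per cell cannot be told apart.

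Most of the replication genes were lower in MA9+SETDB1. At an edgeR adjusted p under 0.05, 32 of the 45 were called lower (71.1%), 1 was called higher (2.22%) and 12 were not called. Of all 12986 tested genes, 26.2% were called lower and 27.4% higher, so the share of replication genes called lower was above the background and the share called higher below it. The median log2 fold change was -0.62 over the replication genes, with a range of -1.50 to 0.43, and -0.01 over all tested genes. The 3 MA9+SETDB1 libraries lay below the 3 MA9+EV libraries without overlap for 34 replication genes, against 32.5% of all tested genes. They lay above without overlap for 3 replication genes, against 32.1% of all tested genes, and the arms overlapped for the remaining 8. Of the 45 estimates, 39 were negative, against 6557 of the 12986 estimates over all tested genes.

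The size of the decrease was moderate. The 32 genes that fell had a median log2 fold change of -0.78, and 7 of them (21.9%) fell by more than 2-fold. Over all 3397 genes called lower the median was -1.21, and 1928 of them (56.8%) fell by more than 2-fold. The smallest count of any of the 45 genes in any library was 156 reads. Their median coefficient of variation within an arm was 8.49% for MA9+EV and 11.7% for MA9+SETDB1. That measure holds the scatter between libraries as well as counting noise. The count of genes called lower depended on how replicates 2 and 3 were treated. When they were summed into 1 library per arm, 13 of the 32 kept the call (28.9% of the 45, against 13.8% of all genes tested that way), and the gene called higher lost it. The median log2 fold change of the 45 genes was -0.62 in that setting too.

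**Figure D1:**
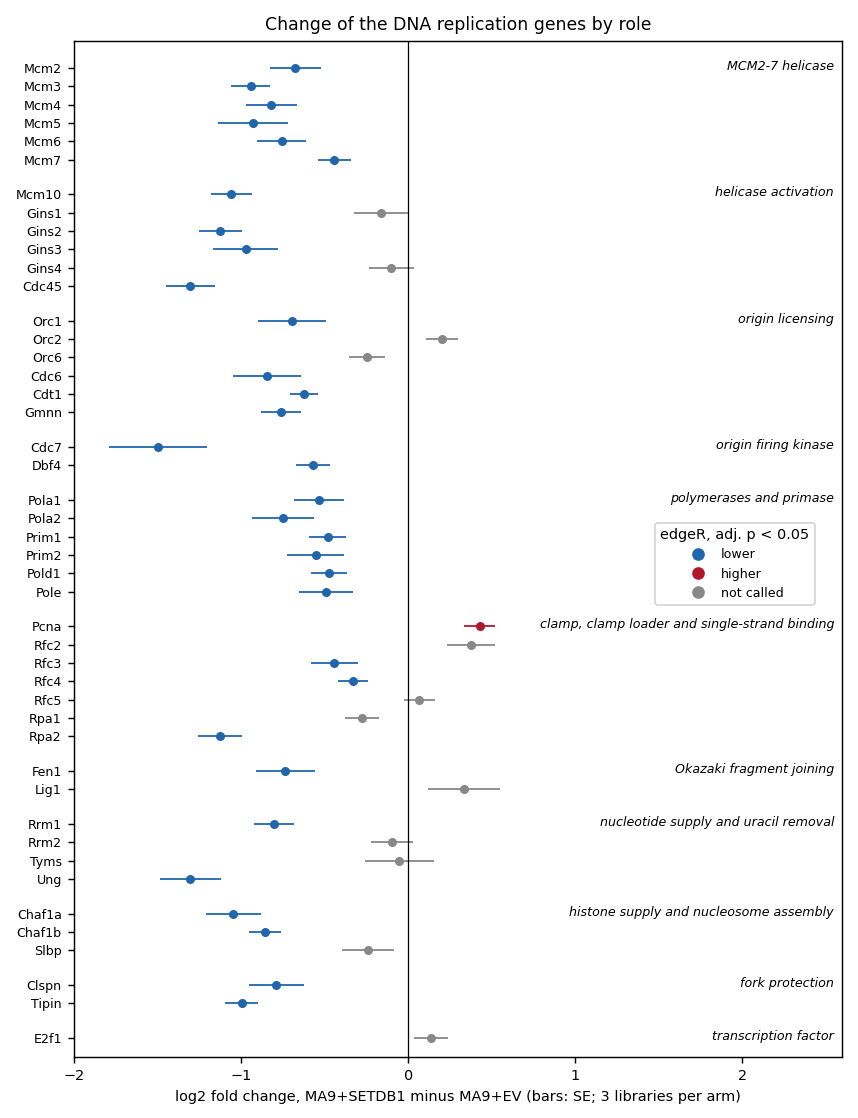
Log2 fold change, MA9+SETDB1 minus MA9+EV, of each of the 45 replication genes (points, with bars of 1 SE from edgeR, 3 libraries per arm), grouped by role. Blue points were called lower, the red point higher and grey points were not called at an adjusted p under 0.05; the points run from -1.50 for Cdc7 to 0.43 for Pcna.

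In every MA9+SETDB1 library the typical replication gene was below its MA9+EV mean, but the depth of the decrease differed between libraries. On the scale of log2(CPM + 0.5), the median difference from the MA9+EV mean over the 45 genes was -0.43 in MA9+SETDB1 replicate 1, -0.75 in replicate 2 and -0.70 in replicate 3. In the MA9+EV libraries the same medians were 0.12, -0.04 and -0.08. Replicate 1 was thus the highest library of each arm by this measure. It was the highest library of MA9+EV for 30 of the 45 genes (66.7%, against 40.8% of all tested genes) and the highest of MA9+SETDB1 for 35 (77.8%, against 44% of all tested genes). The 45 genes together took 0.815%, 0.730% and 0.721% of the counts in the MA9+EV libraries and 0.519%, 0.402% and 0.410% in the MA9+SETDB1 libraries.

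**Figure D2:**
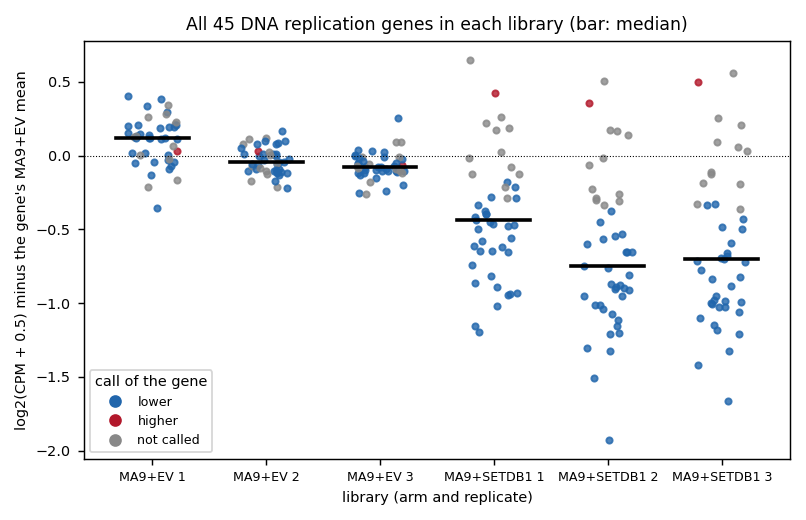
Level, as log2(CPM + 0.5), of each replication gene (points, coloured by call) in each of the 6 libraries relative to its MA9+EV mean. The median bar sits at 0.12, -0.04 and -0.08 in MA9+EV and at -0.43, -0.75 and -0.70 in MA9+SETDB1, where replicate 1 is the least reduced library.

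The promoters of the replication genes were read for the binding letters of E2F. RefSeq (GRCm38.p6) promoter windows, 250 bases before the transcription start and 50 bases from it, were available for 36 of the 45 genes. Each window was searched on both strands for 4 spellings of the E2F element, TTTCCCGC, TTTCGCGC, TTTGCCGC and TTTGGCGC, and overlapping matches were counted separately. The 36 genes had 42 windows, and 13 of these (31%), each of a different gene, held at least 1 match, compared with 744 of all 32851 windows (2.26%) and 489 of 12414 windows of tested genes (3.94%). By call and counted over genes, a match was found for 12 of the 26 genes that fell (46.2%) and for 1 of the 9 that were not called (11.1%), which was Lig1. Pcna, the gene that rose, had none in its window. The stretches below are each 5′ to 3′ on the strand of its gene, and capitals mark the E2F letters. They were picked by fold change. Of the genes called lower that had a match, the 5 with the largest decreases are shown, together with Pcna, the gene called higher. Where a match lay inside the annotated gene, only 30 bases are shown.
Mcm3, chr1:20820265-20820294, minus strand, 18 to 47 bases after the start base: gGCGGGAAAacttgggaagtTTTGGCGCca
Mcm5, chr8:75109302-75109421, plus strand, before the start: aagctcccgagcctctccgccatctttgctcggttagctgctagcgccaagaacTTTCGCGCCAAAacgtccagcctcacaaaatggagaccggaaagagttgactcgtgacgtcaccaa
Gins3, chr8:95633439-95633558, plus strand, before the start: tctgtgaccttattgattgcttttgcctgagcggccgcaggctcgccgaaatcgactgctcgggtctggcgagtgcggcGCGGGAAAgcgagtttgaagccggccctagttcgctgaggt
Cdc6, chr11:98908002-98908031, plus strand, before the start used here: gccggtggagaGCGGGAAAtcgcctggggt
Clspn, chr4:126556990-126557019, plus strand, after the start: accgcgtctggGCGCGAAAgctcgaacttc
Pcna, chr2:132253181-132253300, minus strand, before the start, no match: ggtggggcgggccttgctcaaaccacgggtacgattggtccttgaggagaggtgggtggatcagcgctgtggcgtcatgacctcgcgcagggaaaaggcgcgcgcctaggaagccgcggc

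In Mcm3 the stretch holds 2 separate matches on opposite strands, and in Mcm5 the capitals join 2 overlapping matches, also on opposite strands. The letters are a description of these windows and do not show that a factor was bound. Outside the list, of 449 other tested genes with a match, 140 were called lower (31.2%) and 88 higher (19.6%), with a median log2 fold change of -0.15. Of 9249 other tested genes without one, 26.5% were called lower and 28.5% higher, with a median of -0.01. The CHR letters TTTGAA or TTCGAA, known from promoters of G2 and mitosis genes, were in 9 of the 42 windows of the replication genes (21.4%), in 19.2% of all windows, in 14.4% of the windows of tested genes and in 13 of 18 windows of the mitosis genes (72.2%). Counted over genes, they were in 8 of the 26 replication genes that fell (30.8%) and in 0 of the 9 that were not called. Among other tested genes, 30.1% of those with CHR letters and 26.1% of those without were called lower. The letters CCAAT were in 24 of the 42 windows (57.1%), in 37.4% of all windows, in 38.2% of the windows of tested genes and in 14 of 18 windows of the mitosis genes (77.8%). They were in 16 of the 26 replication genes that fell (61.5%) and in 5 of the 9 that were not called (55.6%).

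**Figure D3:**
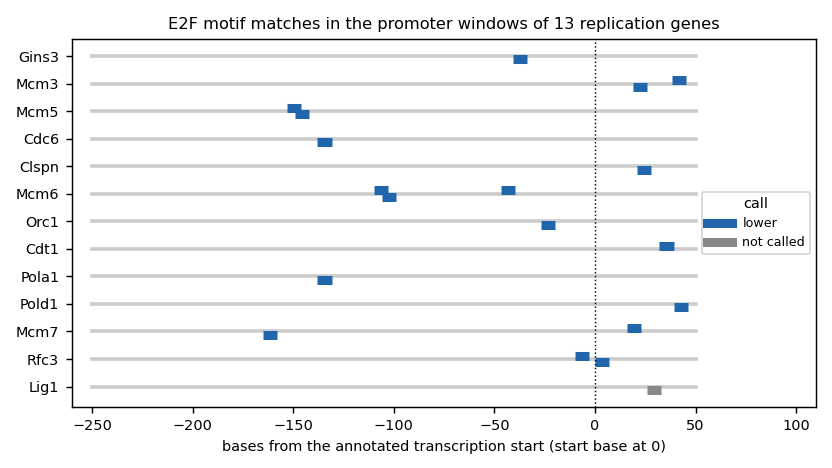
Position of each E2F match relative to the transcription start (bases, negative values upstream) for the replication genes with a match; blocks above a line lie on the strand of the gene and blocks below it on the opposite strand. Of the 13 genes shown, 12 were called lower and 1, Lig1, was not called.

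The MCM2-7 ring, the motor of the replicative helicase, fell as a whole. All 6 subunit genes were called lower, with log2 fold changes from -0.95 to -0.44 and a median of -0.79. Mcm3 (ENSMUSG00000041859.10, chromosome 1, 20802966 to 20820312, GRCm38) was at 570.2, 513 and 489 CPM in MA9+EV and at 298, 259 and 260.2 CPM in MA9+SETDB1. The arms were far apart, and the mean went from 524 ± 41.8 to 272 ± 22.0 CPM (SD, n = 3 each), a log2 fold change of -0.95 ± 0.12 (SE; adjusted p = 0.00071 by edgeR). Mcm5, whose promoter holds the overlapping matches printed above, was at 526, 368 and 339 CPM and then at 258, 196 and 193 CPM, with replicate 1 the highest library on both sides (log2 fold change -0.93 ± 0.21 SE, adjusted p = 0.00845 by edgeR). Mcm7 had the smallest change of the ring. It was at 291, 266 and 247 CPM in MA9+EV and at 198, 195 and 199 CPM in MA9+SETDB1, without overlap (log2 fold change -0.44 ± 0.10 SE, adjusted p = 0.00937 by edgeR). Mcm2, Mcm4 and Mcm6 lay between, at -0.68, -0.82 and -0.76. With replicates 2 and 3 summed, only Mcm3 of the 6 passed the test.

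Of the 6 genes that activate the loaded helicase, 4 fell. Cdc45, Mcm10, Gins2 and Gins3 were lower, while Gins1 and Gins4, which encode further subunits of the same GINS complex, did not pass the test. Cdc45, which rides with MCM and GINS as the active helicase (ENSMUSG00000000028.15, chromosome 16, 18780447 to 18811972), was at 148, 149 and 146 CPM in MA9+EV and at 72.6, 51.5 and 54.7 CPM in MA9+SETDB1. The MA9+EV libraries were nearly equal, and the mean fell from 147 ± 1.51 to 59.6 ± 11.4 CPM (SD, n = 3 each; log2 fold change -1.31 ± 0.15 SE, adjusted p = 0.000422 by edgeR). Mcm10, a scaffold that helps the helicase unwind, went from 154, 126 and 125 CPM to 70.3, 63.7 and 60.3 CPM (log2 fold change -1.06 ± 0.12 SE, adjusted p = 0.000506 by edgeR).

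GINS links Cdc45 to the MCM ring. Gins2 was at 50.1, 59.2 and 48.96 CPM in MA9+EV and at 22.7, 23.3 and 26.5 CPM in MA9+SETDB1 (log2 fold change -1.13 ± 0.13 SE, adjusted p = 0.000465 by edgeR). Gins3 was at 25.0, 22.2 and 20.4 CPM and then at 14.2, 9.50 and 10.8 CPM (log2 fold change -0.97 ± 0.20 SE, adjusted p = 0.00535 by edgeR). For both, every MA9+SETDB1 library was below every MA9+EV library. Gins1 was at 33.0, 24.4 and 28.2 CPM and then at 28.8, 22.9 and 24.8 CPM, so that the arms overlapped (log2 fold change -0.16 ± 0.16 SE, adjusted p = 0.423 by edgeR). Gins4 also overlapped, at 42.6, 53.6 and 52.5 CPM against 45.1, 42.2 and 51.3 CPM (log2 fold change -0.10 ± 0.14 SE, adjusted p = 0.56 by edgeR). The difference between subunits was not itself tested.

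Among the licensing genes, Cdt1, Cdc6, Gmnn and Orc1 fell, and Orc2 and Orc6 did not pass the test. Cdt1, the loader that brings MCM to origins (ENSMUSG00000006585.3, chromosome 8, 122568015 to 122573130), was at 108, 111 and 112 CPM in MA9+EV and at 71.9, 69.8 and 72.9 CPM in MA9+SETDB1. The replicates of Cdt1 were close together, with means of 110.2 ± 2.11 and 71.5 ± 1.56 CPM (SD, n = 3 each; log2 fold change -0.62 ± 0.08 SE, adjusted p = 0.000918 by edgeR). Gmnn, which encodes geminin, the inhibitor of Cdt1, fell alongside it from 79.5, 89.4 and 84.7 CPM to 54.7, 43.3 and 51.3 CPM (log2 fold change -0.76 ± 0.12 SE, adjusted p = 0.00181 by edgeR). Cdc6, the ATPase that works with the origin recognition complex, went from 112, 98.8 and 99.9 CPM to 77.4, 47.6 and 48.0 CPM (log2 fold change -0.85 ± 0.20 SE, adjusted p = 0.0119 by edgeR).

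Of the 3 origin recognition subunits on the list, 1 was called. Orc1, the largest subunit, was at 37.0, 24.6 and 23.5 CPM in MA9+EV and at 18.7, 16.4 and 17.4 CPM in MA9+SETDB1 (log2 fold change -0.70 ± 0.20 SE, adjusted p = 0.0249 by edgeR). Its call was lost without MA9+SETDB1 replicate 2 (edgeR adjusted p = 0.085) or replicate 3 (edgeR adjusted p = 0.0744). Orc6 was at 69.7, 82.6 and 83.5 CPM and then at 64.2, 65.4 and 69.0 CPM, just below without overlap (log2 fold change -0.25 ± 0.11 SE, adjusted p = 0.0896 by edgeR). Without MA9+EV replicate 1 it was called lower (log2 fold change -0.33, edgeR adjusted p = 0.0211). Orc2 lay on the other side, at 95.2, 83.1 and 84.0 CPM and then at 102, 98.3 and 101 CPM (log2 fold change 0.20, edgeR adjusted p = 0.116). Without MA9+EV replicate 1 it was called higher (log2 fold change 0.26, edgeR adjusted p = 0.0373).

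Both parts of the kinase that fires licensed origins fell. Cdc7, the catalytic subunit (ENSMUSG00000029283.17, chromosome 5, 106964315 to 106984440), had the largest decrease of all 45 genes. It was at 55.4, 37.4 and 40.1 CPM in MA9+EV and at 22.4, 11.1 and 13.5 CPM in MA9+SETDB1. Replicate 1 was the highest library of each arm, yet the arms did not overlap, and the mean fell from 44.3 ± 9.70 to 15.7 ± 5.97 CPM (SD, n = 3 each; log2 fold change -1.50 ± 0.29 SE, adjusted p = 0.00483 by edgeR). Its activator Dbf4 went from 126, 112 and 112 CPM to 83.4, 79.4 and 72.2 CPM (log2 fold change -0.57 ± 0.10 SE, adjusted p = 0.00339 by edgeR).

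**Figure D4:**
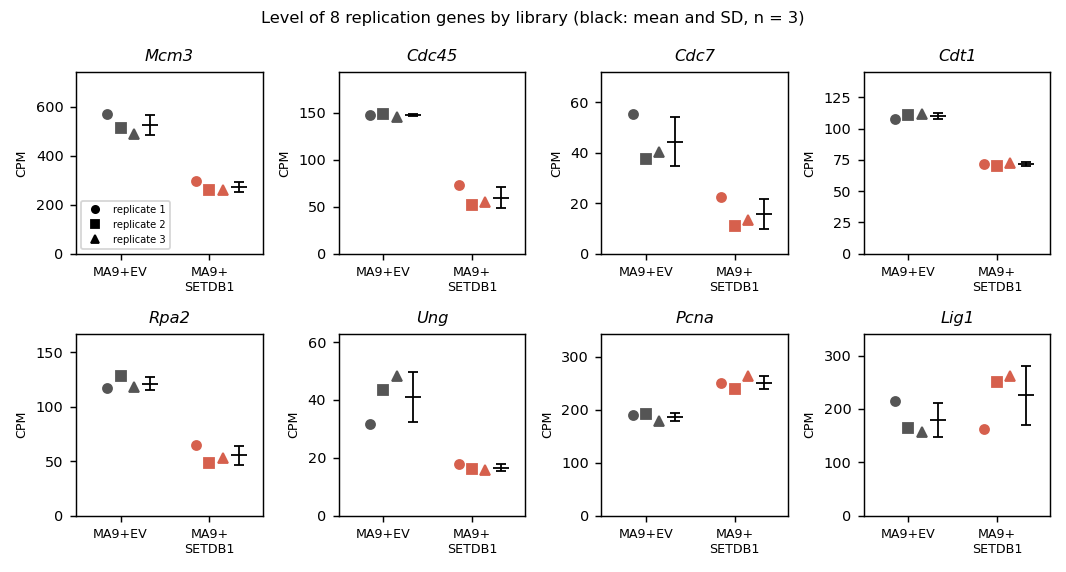
CPM of 8 replication genes in each library (points, with the mean and SD of 3 libraries per arm). Mcm3, Cdc45, Cdc7, Cdt1, Rpa2 and Ung show separate arms that lie lower in MA9+SETDB1, Pcna lies higher in MA9+SETDB1, and the Lig1 arms overlap.

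All 6 polymerase and primase genes on the list fell, by a narrower range of -0.75 to -0.47 on the log2 scale and with a median of -0.51. Further subunits of polymerases delta and epsilon, counted below among other fork and origin genes, were mixed. Pole2 (-0.77) and Pole3 (-0.75) were called lower, Pold4 (0.93) was called higher, and Pold2, Pold3 and Pole4 were not called. Prim1, the catalytic primase subunit that lays down RNA primers, was at 73.5, 65.0 and 62.7 CPM in MA9+EV and at 51.6, 45.04 and 47.3 CPM in MA9+SETDB1 (log2 fold change -0.48 ± 0.11 SE, adjusted p = 0.00934 by edgeR). Its arms were separate, as were those of the other 5 genes. Pola2, the accessory subunit of polymerase alpha, had the largest decrease of the group, from 93.3, 74.9 and 74.7 CPM to 61.0, 43.1 and 40.5 CPM (log2 fold change -0.75 ± 0.19 SE, adjusted p = 0.0131 by edgeR). Pold1 and Pole, the catalytic subunits of the lagging-strand and leading-strand polymerases, had log2 fold changes of -0.47 and -0.49, and Pola1 and Prim2 of -0.53 and -0.55.

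Several of these calls were lost when 1 library was left out, whichever arm it came from. The count of 6 went to 3 without MA9+EV replicate 1 and to 4 without MA9+EV replicate 2 or 3. It went to 2 without MA9+SETDB1 replicate 2 and to 3 without MA9+SETDB1 replicate 3, and stayed at 6 without MA9+SETDB1 replicate 1. With replicates 2 and 3 summed it was 0. Prim2 (edgeR adjusted p = 0.0304) and Pole (edgeR adjusted p = 0.0381) lost their calls in 6 of the 15 alternative settings each.

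The clamp gave the exception to the common direction. Pcna, the sliding clamp that tethers polymerases and a widely used marker of proliferating cells (ENSMUSG00000027342.14, chromosome 2, 132249286 to 132253180), was at 191, 191 and 179 CPM in MA9+EV and at 251, 239 and 264 CPM in MA9+SETDB1. Every MA9+SETDB1 library was above every MA9+EV library, and the mean rose by 34.5%, from 187 ± 7.33 to 251 ± 12.4 CPM (SD, n = 3 each; log2 fold change 0.43 ± 0.09 SE, adjusted p = 0.0083 by edgeR). It was the only one of the 45 genes called higher. The call was lost when libraries were scaled by total counts alone (log2 fold change 0.20, edgeR adjusted p = 0.136) and with replicates 2 and 3 summed (log2 fold change 0.41, edgeR adjusted p = 0.147). The annotation holds the pseudogenes Pcna-ps1 and Pcna-ps2, so the assignment of reads to Pcna is uncertain.

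The clamp loader opens and closes the clamp. A further subunit gene, Rfc1, counted below among other fork and origin genes, was called lower (log2 fold change -0.82, edgeR adjusted p = 0.00275). Of the 4 loader subunit genes on the list, Rfc3 and Rfc4 fell, and Rfc2 and Rfc5 did not pass the test. Rfc4 went from 62.6, 62.4 and 60.9 CPM to 50.9, 47.7 and 49.1 CPM (log2 fold change -0.33 ± 0.09 SE, adjusted p = 0.0181 by edgeR), and Rfc3 from 39.7, 34.4 and 33.5 CPM to 28.2, 22.5 and 28.4 CPM (log2 fold change -0.44 ± 0.14 SE, adjusted p = 0.0358 by edgeR). Both lost the call without either of the MA9+EV replicates 2 and 3 or the MA9+SETDB1 replicates 2 and 3, and Rfc3 also without MA9+EV replicate 1. Rfc2 was at 144, 137 and 130.2 CPM and then at 215, 154 and 163 CPM, higher without overlap but short of the threshold (log2 fold change 0.37 ± 0.15 SE, adjusted p = 0.0662 by edgeR). With the replicate number as a block it was called higher (log2 fold change 0.36, edgeR adjusted p = 0.0383), which made 2 genes called higher in place of 1. Rfc5 was at 88.1, 91.2 and 89.1 CPM and at 101, 88.4 and 91.3 CPM, with overlap (log2 fold change 0.07, edgeR adjusted p = 0.582).

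Of the single-strand binding protein RPA, the list held Rpa1 and Rpa2, and Rpa2 fell sharply. Rpa3, counted below among other fork and origin genes, was called lower (log2 fold change -0.55, edgeR adjusted p = 0.021). Rpa2 (ENSMUSG00000028884.14, chromosome 4, 132768360 to 132778746) was at 117, 128 and 118 CPM in MA9+EV and at 65.2, 48.1 and 53.2 CPM in MA9+SETDB1 (log2 fold change -1.13 ± 0.13 SE, adjusted p = 0.000543 by edgeR). Rpa1, the large DNA-binding subunit of the same complex, was at 259.6, 229 and 223 CPM and then at 205, 194 and 189 CPM. Those arms were separate, but the difference did not pass the test (log2 fold change -0.28 ± 0.10 SE, adjusted p = 0.0591 by edgeR) except with the replicate block (edgeR adjusted p = 0.0365) and 2 other scalings of the libraries.

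Of the enzymes that mature Okazaki fragments, Fen1 fell and Lig1 did not pass the test. Fen1, the nuclease that removes flaps, was at 223, 171 and 158 CPM in MA9+EV and at 131, 97.9 and 102 CPM in MA9+SETDB1 (log2 fold change -0.74 ± 0.18 SE, adjusted p = 0.0115 by edgeR). Lig1, the ligase that seals the nicks, was at 216, 165 and 156 CPM and then at 162, 251 and 262 CPM. In Lig1, MA9+SETDB1 replicate 1 fell inside the MA9+EV range while replicates 2 and 3 were above it (log2 fold change 0.33 ± 0.22 SE, adjusted p = 0.236 by edgeR). Without that library it was called higher (log2 fold change 0.53, edgeR adjusted p = 0.0313).

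In nucleotide supply, of Rrm1 and Rrm2, which encode the large and small subunits of ribonucleotide reductase, the former fell and the latter did not pass the test. Rrm1 was at 642, 574 and 562 CPM in MA9+EV and at 376, 322 and 319.9 CPM in MA9+SETDB1, without overlap (log2 fold change -0.80 ± 0.12 SE, adjusted p = 0.00162 by edgeR). Rrm2 was at 336, 263 and 267 CPM and then at 271, 274 and 263 CPM, with full overlap (log2 fold change -0.10 ± 0.13 SE, adjusted p = 0.538 by edgeR). Tyms, the thymidylate synthase, also overlapped, at 92.0, 68.3 and 60.5 CPM against 86.8, 58.5 and 67.2 CPM (log2 fold change -0.06 ± 0.21 SE, adjusted p = 0.839 by edgeR), and a pseudogene, Tyms-ps, is annotated. The signs of Rrm2 and Tyms turned when MA9+EV replicate 1 was left out, to log2 fold changes of 0.02 and 0.13.

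Ung, the glycosylase that removes uracil from newly made DNA (ENSMUSG00000029591.14, chromosome 5, 114130366 to 114139321), had one of the larger decreases. It was at 31.6, 43.4 and 48.4 CPM in MA9+EV and at 17.9, 16.1 and 15.8 CPM in MA9+SETDB1, and here replicate 1 was the lowest MA9+EV library. The mean fell from 41.1 ± 8.62 to 16.6 ± 1.11 CPM (SD, n = 3 each; log2 fold change -1.31 ± 0.18 SE, adjusted p = 0.00111 by edgeR). The Ung gene overlaps Alkbh2 in the annotation.

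Both large subunits of the CAF-1 chaperone, which sets new histones behind the fork, fell. Chaf1b was at 76.6, 83.7 and 76.3 CPM in MA9+EV and at 43.0, 41.6 and 45.9 CPM in MA9+SETDB1 (log2 fold change -0.86 ± 0.10 SE, adjusted p = 0.000446 by edgeR). Chaf1a was at 159, 129.6 and 129 CPM and then at 82.4, 59.7 and 59.7 CPM (log2 fold change -1.05 ± 0.17 SE, adjusted p = 0.00195 by edgeR). Neither pair of arms overlapped. Slbp, which binds the stem-loop of histone mRNAs, was at 113, 84.1 and 88.8 CPM and at 93.4, 74.99 and 73.4 CPM, with overlap (log2 fold change -0.24 ± 0.16 SE, adjusted p = 0.231 by edgeR), and was called lower with the replicate block (edgeR adjusted p = 0.0488).

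The fork protection genes fell, and Tipin had the smallest p of the 45. Tipin, the partner of Timeless at the fork (ENSMUSG00000032397.7, chromosome 9, 64281491 to 64305422), was at 158, 185 and 177 CPM in MA9+EV and at 89.8, 85.6 and 84.6 CPM in MA9+SETDB1 (log2 fold change -0.998 ± 0.10 SE, adjusted p = 0.000262 by edgeR). Clspn, which relays fork stress to the checkpoint kinase Chek1, was at 91.5, 78.0 and 83.8 CPM and then at 61.0, 43.3 and 42.1 CPM (log2 fold change -0.79 ± 0.17 SE, adjusted p = 0.00661 by edgeR). E2f1 itself, the activator of many S-phase genes, did not pass the test. It was at 54.4, 58.7 and 50.1 CPM in MA9+EV and at 61.9, 59.9 and 57.8 CPM in MA9+SETDB1, with overlap (log2 fold change 0.14 ± 0.10 SE, adjusted p = 0.289 by edgeR).

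Other genes of the same processes, from lists drawn up by function, were counted beside the 45. Of 35 other fork and origin genes, 22 fell and 4 rose (62.9% and 11.4%), with a median log2 fold change of -0.57. The fallen genes included Ssrp1, a subunit of the histone chaperone FACT, which went from 562 ± 39.8 to 218 ± 10.8 CPM (SD, n = 3 each; log2 fold change -1.37 ± 0.11 SE, adjusted p = 0.000107 by edgeR), Dtl (-1.20) and Rnaseh2c (-1.15). The 4 that rose, named after their values were seen, were Dna2, Orc4, Pold4 and Mcm8; the count that rose was 2 without MA9+EV replicate 3 or without MA9+SETDB1 replicate 2, and 0 with replicates 2 and 3 summed. Of 26 other nucleotide supply genes, 14 fell and 5 rose (53.8% and 19.2%, median -0.45). Umps, of pyrimidine synthesis, and Ppat, the first committed enzyme of purine synthesis, fell by 1.12 and 1.11 on the log2 scale. Samhd1, which breaks down deoxynucleotides, rose from 73.3 ± 8.36 to 369 ± 79.6 CPM (SD, n = 3 each; log2 fold change 2.33, edgeR adjusted p = 0.000121).

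Of 14 other histone chaperone and chromatin genes, 6 fell and 1 rose (median -0.36), among them Hells (-1.59), Uhrf1 (-0.82) and Rbbp4 (-0.47); without MA9+SETDB1 replicate 2 the count that fell was 3, and without MA9+SETDB1 replicate 3 the count that rose was 0. Of 19 replication checkpoint genes, 9 fell and 3 rose (47.4% and 15.8%, median -0.31). Wee1, the kinase that restrains Cdk1, fell from 113 ± 2.93 to 31.2 ± 8.43 CPM (SD, n = 3 each; log2 fold change -1.86 ± 0.19 SE, adjusted p = 0.000311 by edgeR), and Fancd2 and Brca2, which protect stalled forks, fell by 0.93 and 1.34 on the log2 scale.

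**Figure D5:**
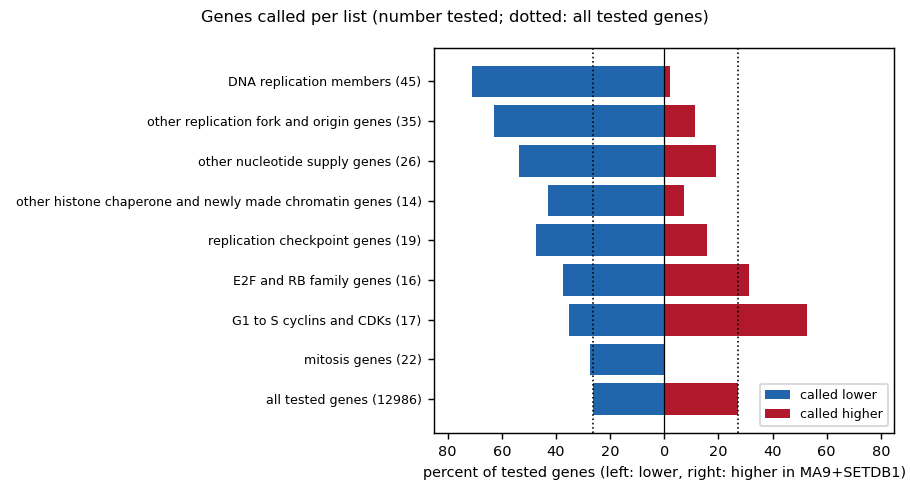
Percent of tested genes called lower (left, blue) and higher (right, red) in MA9+SETDB1 for the replication genes and 7 lists of related function, with dotted lines at the 26.2% and 27.4% of all tested genes. The replication genes reach 71.1% lower and 2.22% higher; the G1 to S list reaches 35.3% lower and 52.9% higher.

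The genes that govern entry into S phase held calls in both directions. Of 16 E2F and RB family genes, 6 fell and 5 rose (37.5% and 31.2%), with a median log2 fold change of -0.01. Rb1, the retinoblastoma repressor of E2F, rose from 49.1 ± 0.190 to 275 ± 23.2 CPM (SD, n = 3 each; log2 fold change 2.48, edgeR adjusted p = 8e-06). E2f2 rose from 32.9 to 118 CPM on average (log2 fold change 1.84) and Tfdp2, a partner of E2F proteins, fell from 45.2 to 6.05 CPM (log2 fold change -2.90). Of the 17 tested G1 to S cyclins, kinases and inhibitors, 9 rose and 6 fell (52.9% and 35.3%, median 0.92). Of the 7 CDK inhibitor genes with a Cdkn symbol, 6 rose and 1 fell. Cdkn2a was at 1.24, 2.41 and 2.72 CPM in MA9+EV and at 153, 452 and 454 CPM in MA9+SETDB1, with replicate 1 well below replicates 2 and 3 in the latter (log2 fold change 7.38 ± 0.59 SE, adjusted p = 0.000104 by edgeR). The D-type cyclins Ccnd2 and Ccnd3 rose too, by 2.78 and 1.40. Without MA9+SETDB1 replicate 2 the number of G1 to S genes that fell went from 6 to 3.

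Of 22 mitosis genes, 6 fell (27.3%) and 0 rose by edgeR, with a median log2 fold change of -0.34. The share called lower was near that of all tested genes and the share called higher was below it. Of the 22 estimates 19 were negative, against 6557 of 12986 for all tested genes. Without overlap, 11 of the mitosis genes lay below and 0 above, against 32.5% and 32.1% of all tested genes. Birc5, of the chromosomal passenger complex, went from 129.9 to 72.5 CPM on average (log2 fold change -0.84), Aurkb, the kinase of that complex, from 143 to 88.2 CPM (-0.70), and Cdk1, the mitotic kinase, from 244 to 167 CPM (-0.54). The count called lower was 11 with the replicate block, 10 with upper-quartile factors, 15 with library size alone and 2 with replicates 2 and 3 summed. Of all genes tested in those settings, 29%, 29.4%, 35.3% and 13.8% were called lower, in the same order. Outside the naming rule, and chosen after their values were seen, the proliferation markers Top2a and Mki67 did not pass the test. Top2a was at 845 ± 54.9 and 803 ± 43.5 CPM (SD, n = 3 each; edgeR adjusted p = 0.631), and Mki67 at 549 ± 124 and 435 ± 116 CPM (SD, n = 3 each; edgeR adjusted p = 0.273). Whether the replication genes and the mitosis genes differed in their change was not tested.

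Scaling set where zero lay. By total counts alone, the median log2 fold change of all tested genes moved to -0.24, and 2825 genes were called higher and 4585 lower, where TMM scaling gave 3554 and 3397. Relative to that shift the replication genes remained lower, with a median of -0.85, and 34 were called lower and 0 higher. For 19 of the 45 genes the annotation places another gene over the same stretch, 11 of them with a gene other than a microRNA or a Gm model, such as Ufd1 at Cdc45, Gse1 at Gins2, Smyd4 at Rpa1 and Eif4a2 at Rfc4. The libraries were strand-specific per the labels, but no source used here gives the strand setting of the counting, so the reads of overlapping genes may not be separated.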

How the data were processed

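RNA-seq of 3 MA9+EV and 3 MA9+SETDB1 libraries was analysed. The authors deposited 1 table of raw read counts per gene for each library, and the submitters' processing notes name cutadapt 1.18, STAR 2.6.0c, HTSeq 0.11.0 and GRCm38. Of 54146 identifiers, 52480 matched the gene name table by versioned Ensembl ID and 1599 by stable ID, and 67 did not match. The 5 summary lines, 24.6% to 26.3% of all entries, were left out. Genes were filtered with filterByExpr, scaled by TMM and tested with edgeR 4.0.16 (R 4.3.3) by the quasi-likelihood F-test, MA9+SETDB1 against MA9+EV, with Benjamini-Hochberg adjustment over 12986 genes and a threshold of 0.05. The method was tested on simulated data. CPM values use TMM-scaled library sizes, and SDs are over 3 libraries. Levels were not compared between genes, since transcript lengths were not used here.

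The members and lists were chosen with earlier results of these data known. All 45 members were described by role; full statistics went to those with the smallest p of their role, the extremes, those against the common direction and those whose arms overlap unlike their neighbours. Of each other list, up to 3 genes of smallest p were named, and any others were chosen after their values were seen. Same-numbered libraries deviated together (correlations of deviations 0.271, 0.225 and 0.205), but replicates 2 and 3 of opposite arms correlated equally (0.240 and 0.204). The labels do not say that a number marks a shared batch. Alternatives were DESeq2 1.42.0, limma 3.58.1 (voom), other scalings and filters, the replicate block, leaving out each library, and summing replicates 2 and 3, 15 in all.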

Additional observations from a re-analysis of the deposited data

How the results depend on the processing

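The members called lower numbered 32 with DESeq2, with voom, with relative-log-expression factors and with a filter at 10 CPM, 34 with upper-quartile factors, with library size alone and with the replicate block, 30 with no filter, 25 to 32 when 1 library was left out, and 13 with replicates 2 and 3 summed. Those called higher numbered 0 with library size alone, 2 with the replicate block, 1 to 2 when 1 library was left out, and 0 with replicates 2 and 3 summed. The share of all genes called also moved. Called lower were 15.3% with DESeq2 and 14.5% with no filter, both over 24595 genes. The share was 29.4% with upper-quartile factors, 35.3% with library size alone and 29% with the block. Leaving out 1 library gave 20.1% to 29.7% lower and 22.1% to 30.9% higher. Called higher were 21.8% with library size alone and 29.2% with the block. With the block, Rfc2, Rpa1 and Slbp gained a call and none of the 32 lost one. Summing leaves 2 libraries per arm: over all genes it gave 2292 higher and 1928 lower. Leaving out 1 library gave 2992 to 4231 higher and 2727 to 4063 lower. The 13 genes called in the same direction under all 15 alternatives were Mcm3, Mcm10, Gins2, Cdc45, Cdt1, Gmnn, Cdc7, Rpa2, Rrm1, Ung, Chaf1a, Chaf1b and Tipin. The sign turned for 5 genes, none of them called: Rfc5 with upper-quartile factors (-0.0012) and with library size alone (-0.16), Orc2 (-0.026) and E2f1 (-0.088) with library size alone, Rrm2 without MA9+EV replicate 1, and Tyms without MA9+EV replicate 1 or MA9+SETDB1 replicate 2 (0.069). When 1 library was left out Rrm2 ranged from -0.17 to 0.021 and Tyms from -0.22 to 0.13. The cause was not tested. No member had fewer than 156 reads in a library, so precision rested on the 3 libraries per arm more than on counting noise. With replicates 2 and 3 summed, 10 of the 35 other fork and origin genes fell and 0 rose. In the same order (fell, rose) the counts were 7 and 2 of 26 other nucleotide genes and 2 and 0 of 14 other chaperone genes. They were 2 and 3 of 16 E2F and RB genes and 6 and 1 of 19 checkpoint genes. They were 1 and 9 of 17 G1 to S genes and 2 and 0 of 22 mitosis genes. Of all genes tested that way, 13.8% were called lower and 16.4% higher. The chaperone, E2F and RB, G1 to S and mitosis lists were near or below that share of genes called lower.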
